A study of Homo sapiens with 4 samples.

Results

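BAX, BAK1 and the BH3-only genes are the pro-death branch of the BCL2 family. The group was set by name as 10 genes: the effectors BAX and BAK1, and the BH3-only genes BID, BIK, BAD, BCL2L11 (BIM), BMF, PMAIP1 (NOXA), BBC3 (PUMA) and HRK. All 10 were found in the deposited table, on 13 of its 16328 transcript rows. Expression was measured in Jurkat cells, an established human line of leukemic T lymphocytes, in 4 libraries. Of these, 1 was labelled Control, which the series design describes as a control shRNA, and 3 were labelled SLEAR shRNA-1, -2 and -3. The hairpins against SLEAR were carried by the lentiviral vector pGreenPuro. The libraries were made by MAPS, which reads transcripts next to the poly(A) tail. The series title ties SLEAR to lupus and to apoptosis, so the comparison asks whether targeting it goes with other levels of these genes. The time after transduction was not given in the sources used here. The labels also leave unsaid whether SLEAR shRNA-1, -2 and -3 carried distinct hairpins or came from separate cultures. The p-values therefore reflect only how these libraries vary, and that variation may be technical.

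BAX and BAK1 form pores in the outer mitochondrial membrane, through which cytochrome c escapes and caspases are switched on. BH3-only proteins sense stress and start this step, either by activating BAX and BAK1 directly or by occupying the pro-survival proteins such as BCL2 and MCL1 that restrain them. In T lymphocytes BCL2L11 is known for its part in the deletion of self-reactive cells and in the end of immune responses, and its loss in mice leads to autoimmunity.

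Values are in RPM, reads scaled to a common library total, and the SLEAR shRNA libraries are always listed in the order -1, -2, -3. Estimated depths were 4814179 to 8384933 reads a library. The transcript targeted by the hairpins was not analysed here, so the extent of the knockdown is not known. SLEAR shRNA-3 stood apart: 6941 of its rows were at 0, against 2314 to 2984 in the other 3 libraries. Across genes its log2 values had a Pearson correlation of 0.878 to 0.886 with the others, which correlated at 0.962 to 0.977 among themselves. Summed markers of the T lineage, with 11 of 11 genes in the table, were 4017 RPM in Control and 4292 to 4434 RPM with SLEAR shRNA, most of it from CD3D, CD3E, CD247 and LCK. Of 10 tested T lineage rows, 3 lay above Control in all 3 SLEAR shRNA libraries and 2 below. Over all tested rows the shares were 17.8% above and 28.6% below. The 2 rows below were CD28 (7.87 RPM against 1.28, 2.92 and 0 RPM) and TRAT1 (44.5 RPM against 42.6, 32.4 and 8.72 RPM). CD3G was at 0.24 RPM in Control and at 0 elsewhere. Of 5 B cell markers 3 were in the table, and their sum was 12.0 RPM against 19.7 to 23.1 RPM, nearly all from CD79A. Markers of myeloid, erythroid and epithelial cells (3, 2 and 2 of 5 in the table) summed to at most 3.19 RPM in any library. The part of these markers in the differences below was not tested.

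The upstream sequences of 4 members are shown because they cover both effectors and the BH3-only genes with the largest positive differences, BID and BBC3. They are RefSeq promoter windows on GRCh38.p14, from 250 bases before to 50 after a transcription start, and were matched by symbol for 9 of the 10 genes. The deposited values were made on hg19, and no position was carried between the builds. Where a gene had several starts, the window listed first was used. Capitals mark the E-box CACGTG, the GC box GGGCGG and the CCAAT box, each on either strand.
BAX, chr19:48954625-48954924, plus strand: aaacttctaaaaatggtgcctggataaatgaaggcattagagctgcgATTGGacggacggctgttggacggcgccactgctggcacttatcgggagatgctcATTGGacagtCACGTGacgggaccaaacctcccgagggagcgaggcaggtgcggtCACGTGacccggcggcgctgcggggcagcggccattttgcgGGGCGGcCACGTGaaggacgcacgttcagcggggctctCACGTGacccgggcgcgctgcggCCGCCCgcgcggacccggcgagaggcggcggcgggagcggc
BAK1, chr6:33580227-33580526, minus strand: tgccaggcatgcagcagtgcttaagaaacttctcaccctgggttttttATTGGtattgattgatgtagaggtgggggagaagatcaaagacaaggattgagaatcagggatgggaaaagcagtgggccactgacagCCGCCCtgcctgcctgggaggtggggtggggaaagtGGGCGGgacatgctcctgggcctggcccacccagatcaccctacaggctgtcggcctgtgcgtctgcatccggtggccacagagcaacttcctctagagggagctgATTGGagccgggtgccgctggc
BID, chr22:17774420-17774719, minus strand: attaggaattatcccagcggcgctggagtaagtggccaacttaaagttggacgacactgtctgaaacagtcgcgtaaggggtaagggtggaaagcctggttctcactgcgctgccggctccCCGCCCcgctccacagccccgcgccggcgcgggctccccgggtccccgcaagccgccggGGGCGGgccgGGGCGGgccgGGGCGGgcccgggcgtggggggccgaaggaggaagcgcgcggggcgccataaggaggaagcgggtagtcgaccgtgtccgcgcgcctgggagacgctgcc
BBC3, chr19:47232618-47232917, minus strand: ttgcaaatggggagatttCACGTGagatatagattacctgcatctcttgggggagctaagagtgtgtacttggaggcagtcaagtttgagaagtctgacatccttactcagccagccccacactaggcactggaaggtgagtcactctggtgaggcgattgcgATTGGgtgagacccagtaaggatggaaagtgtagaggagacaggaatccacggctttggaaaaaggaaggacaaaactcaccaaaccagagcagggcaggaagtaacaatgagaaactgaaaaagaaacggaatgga
The E-box was present in 4 copies in the BAX window, 1 copy in the BBC3 window and none in the windows of BAK1 and BID shown. Of 35116 promoter windows of this length, 7.26% held at least 1 such E-box and 0.0142% held at least 4. The BID window shown held 4 GC boxes and no CCAAT box, and 9.06% of all windows held at least 4 GC boxes. BID had 5 windows, which in the order listed held 4, 2, 0, 4 and 3 GC boxes. Its windows 2 and 5 each held 1 E-box. Which start was used in these cells was not tested. BAX and BAK1 each had 2 GC boxes and 2 CCAAT boxes, and BBC3 had 1 CCAAT box. A match of these letters is a description of the window and shows no binding.

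BID showed the largest difference among the well-expressed members, with 1.68 to 2.98 times its Control level in the SLEAR shRNA libraries. BIK was higher by a nearly equal amount in each of the 3, BBC3 was higher in each but mostly in SLEAR shRNA-3, and BAX was slightly higher. BAK1 and BAD lay close to Control in SLEAR shRNA-1 and -2, and BCL2L11 was lower in these but higher in SLEAR shRNA-3. None of these differences passed the test over all rows. By limma-trend on log2(RPM + 1), 0 of 12350 rows were called higher and 0 lower at an adjusted p under 0.05 (0% in each direction), and limma-voom also called 0. Without adjustment, p was under 0.05 for 92 rows that were higher (0.745%) and 239 that were lower (1.94%). BID was the 1 member row among the former, and 0 member rows were among the latter.

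**Figure D1:**
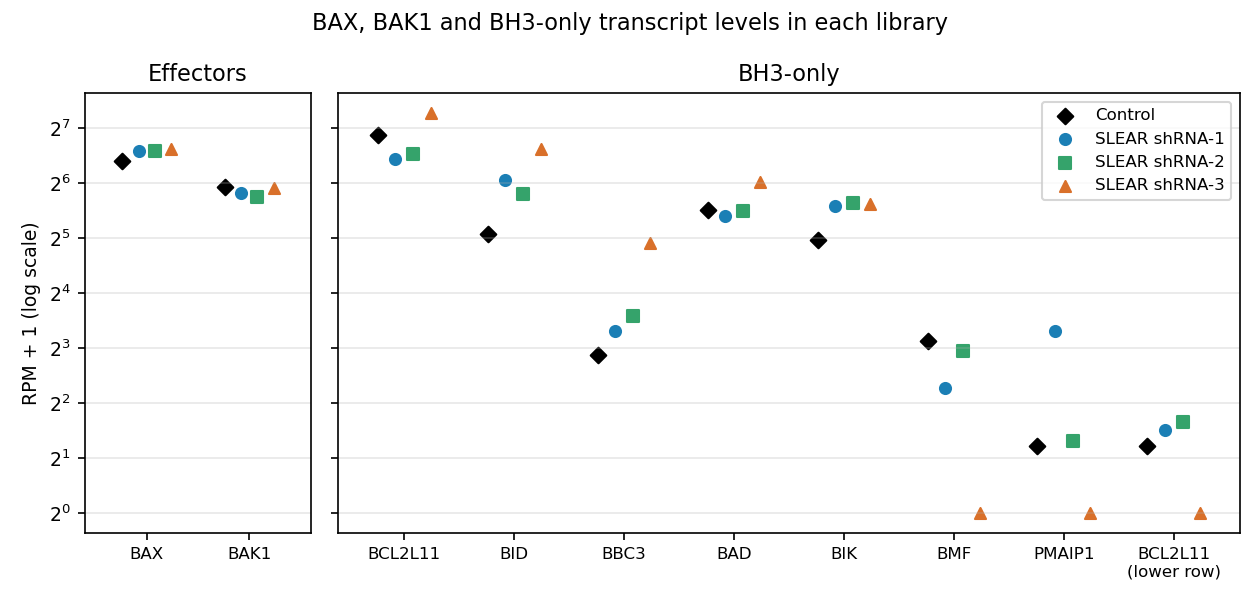
Level of each member in RPM + 1 on a log2-scaled axis, for the 10 transcript rows tested, with 1 point per library. BID, BIK, BBC3 and BAX have all 3 SLEAR shRNA points above the Control diamond, and 3 of the low rows are at 0 in SLEAR shRNA-3.

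Of the 13 rows, 10 were tested, and they held 9 of the 10 genes. HRK and a second BAX row never reached 1 RPM, the minimum for a test, and a second BMF row had the same values as the first and was merged with it. Control lay below all 3 SLEAR shRNA libraries in 4 of the 10 rows, where 17.8% of all tested rows did so, and above all 3 in 2 rows, where 28.6% did. The background depends on level: among 4851 rows that averaged at least 4 in log2(RPM + 1), the shares were 25% and 25.6%, and 3 and 1 of 6 member rows lay there. The median log2 difference of the 10 rows was 0.16, against -0.11 over all tested rows and -0.018 over the 4851 rows. Without SLEAR shRNA-3, 6 of 10 member rows lay above Control in both libraries kept, beside 35.2% of all rows, and 4 below, beside 41%. Without SLEAR shRNA-1 or without SLEAR shRNA-2 the member counts were again 4 and 2, beside 22.4% and 35.8% or 22.5% and 34.9% of all rows. A row reaches the minimum through its highest library, so these counts describe the rows that passed and not all members.

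Among the effectors, BAX had a level of 83.7 RPM in Control, and SLEAR shRNA gave 94.6, 95.5 and 97.7 RPM. The 3 SLEAR shRNA values were close together and all above Control. Their mean was 95.9 ± 1.57 RPM (SD, n = 3), a log2 difference of 0.19 with a 95% interval of -0.32 to 0.71 (adjusted p = 0.993 by limma). The limma interval is wide beside the scatter of BAX itself because limma draws each row's spread toward that of rows of like level. Counting error alone gave ratios to Control of 1.13 (95% exact binomial interval 1.02 to 1.26), 1.14 (1.03 to 1.27) and 1.17 (1.04 to 1.31). These counting intervals, here and below, rest on estimated reads and cover neither the spread between cultures nor that of library making. BAX had a second row, for 3 other RefSeq transcripts, which was listed at 0 in every library.

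BAK1, the other pore-forming effector, measured 59.9 RPM in Control, and SLEAR shRNA gave 55.6, 53.2 and 59.4 RPM. The 3 values were all below Control, by little. The log2 difference was -0.09 (95% interval -0.71 to 0.52, adjusted p = 0.993 by limma), and the counting intervals of all 3 ratios to Control included 1. The row is uncertain, since GENCODE 29 lists 2 processed pseudogenes named for BAK1 and the pseudogene GGNBP1 on the opposite strand, and the use of strand in counting was not given in the sources used here. BAX and BAK1 together summed to 144 RPM in Control. With SLEAR shRNA the sum was 152 ± 4.47 RPM (SD, n = 3). The ratio of BAX to BAK1 was 1.40 in Control and 1.70, 1.80 and 1.64 in the SLEAR shRNA libraries. Both the sum and the ratio are of RNA, and neither the amount nor the function of the proteins was measured here.

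**Figure D2:**
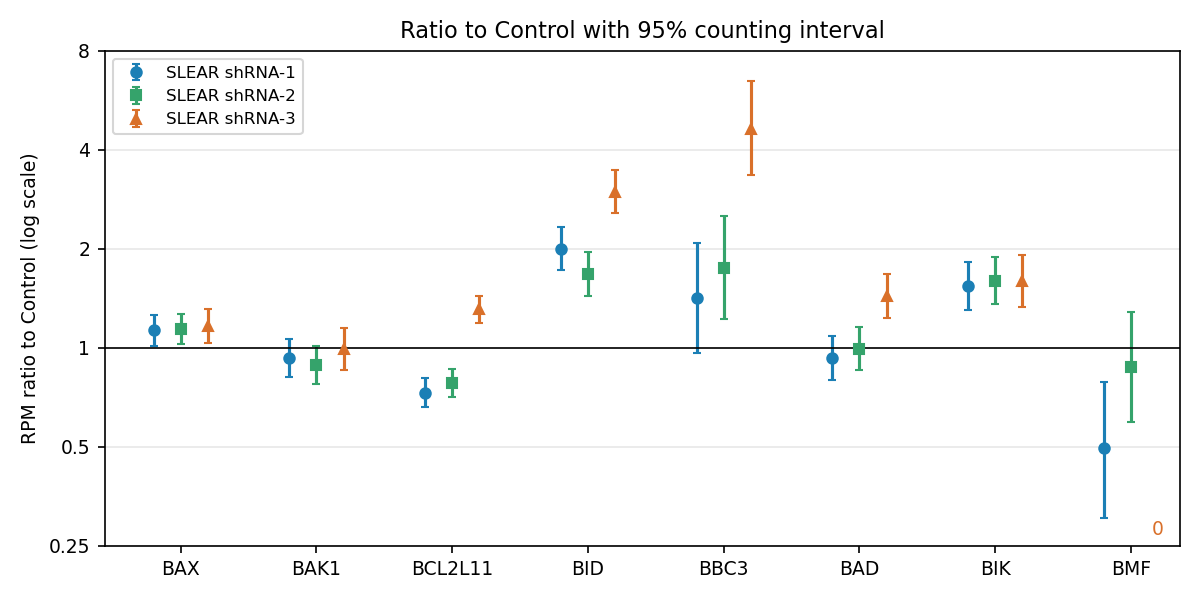
Ratio of RPM to Control for each SLEAR shRNA library on a log2-scaled axis, for the 8 genes with at least 50 estimated reads in Control, with 95% exact binomial intervals that cover counting error only. BID, BIK and, by little, BAX lie above 1 with every interval. BCL2L11 is below 1 in SLEAR shRNA-1 and -2 and above it in SLEAR shRNA-3, and the 0 marks BMF in SLEAR shRNA-3.

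Of the BH3-only genes that can activate BAX and BAK1 directly, BID carries the signal of death receptors to mitochondria after caspase-8 has cut it. The Control level of BID was 32.8 RPM, and SLEAR shRNA gave 65.5, 55.0 and 97.6 RPM. All 3 values were above Control and they spread widely among themselves. Their mean was 72.7 ± 22.2 RPM (SD, n = 3). On the log2 scale BID differed from Control by 1.08 ± 0.39 (SE). The 95% interval ran from 0.04 to 2.13, with an unadjusted p of 0.0451 and an adjusted p of 0.993 by limma. The ratios to Control were 2.00 (95% counting interval 1.72 to 2.33), 1.68 (1.44 to 1.96) and 2.98 (2.56 to 3.47). The SLEAR shRNA libraries also differed from each other beyond counting error, with SLEAR shRNA-3 at 1.49 times SLEAR shRNA-1 (1.31 to 1.70). Among the 4851 better-expressed rows, the difference of BID from Control exceeded that of 98.97%, 97.1% and 99.2% of rows in the 3 libraries. These 3 positions and the 3 ratios share the single Control value, so they are not independent. The same holds for BIK below.

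BCL2L11 encodes BIM, which binds every pro-survival member of the family. Its main row, for 16 RefSeq transcripts, measured 117 RPM in Control, and SLEAR shRNA gave 85.7, 91.4 and 154 RPM. SLEAR shRNA-1 and -2 were below Control and SLEAR shRNA-3 above it, so the groups overlapped. The counting intervals of the ratios excluded 1 on both sides, at 0.73 (0.66 to 0.81) and 0.78 (0.71 to 0.86) against 1.31 (1.19 to 1.44). The log2 difference was -0.14 (95% interval -1.21 to 0.93, adjusted p = 0.993 by limma). Without SLEAR shRNA-3 it was -0.40 (-0.75 to -0.05, adjusted p = 0.368), and with array weights -0.37. A lower row, for 1 transcript whose annotated end lies 24964 bases from the nearest end of the main row's transcripts, measured 1.31 RPM in Control, and SLEAR shRNA gave 1.84, 2.13 and 0 RPM. The noncoding gene MIR4435-2HG overlaps BCL2L11 on the opposite strand, so its reads could be counted here if strand was not used.

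BBC3 encodes PUMA, a target of p53 that binds all pro-survival members. BBC3 measured 6.32 RPM in Control, and SLEAR shRNA gave 8.94, 11.03 and 29.3 RPM. All 3 values were above Control, and SLEAR shRNA-3 was far above the other 2. The log2 difference was 1.07 ± 0.82 (SE), with a 95% interval of -1.11 to 3.25 and an adjusted p of 0.993 by limma. Without SLEAR shRNA-3 it was 0.58 (-0.40 to 1.56, adjusted p = 0.465), and with array weights 0.66. The ratios to Control were 1.41 (95% counting interval 0.97 to 2.08), 1.75 (1.22 to 2.51) and 4.63 (3.36 to 6.48), so that of SLEAR shRNA-1 was not separable from 1 at this depth. Rows of this level were erratic in SLEAR shRNA-3. Of rows averaging 8 to 16 RPM over the other 2 SLEAR shRNA libraries, 9.21% were listed at 0 there and 0% in Control. Whether the high BBC3 value of SLEAR shRNA-3 has to do with this was not tested.

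Among the sensitizers, which act by occupying pro-survival proteins, BIK resides mainly at the endoplasmic reticulum. The Control level of BIK was 30.4 RPM, and SLEAR shRNA gave 46.8, 48.6 and 48.4 RPM. The SLEAR shRNA values differed from each other by less than counting error and were all above Control. Their mean was 48.0 ± 0.99 RPM (SD, n = 3). On the log2 scale BIK differed from Control by 0.64 ± 0.25 (SE). The 95% interval was -0.02 to 1.30, with an unadjusted p of 0.0549 and an adjusted p of 0.993 by limma. The ratios to Control were 1.54 (95% counting interval 1.30 to 1.82), 1.60 (1.36 to 1.88) and 1.59 (1.33 to 1.91). The difference of BIK exceeded that of 93.6%, 95.9% and 84.3% of the 4851 rows.

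BAD is held by 14-3-3 proteins while growth factor kinases phosphorylate it, and binds BCL2 and BCL2L1 when released. BAD measured 44.5 RPM in Control, and SLEAR shRNA gave 41.4, 44.1 and 63.98 RPM. SLEAR shRNA-1 and -2 lay at or just below Control and SLEAR shRNA-3 above it. The log2 difference was 0.13 (95% interval -0.80 to 1.07, adjusted p = 0.993 by limma), and -0.056 (-0.49 to 0.38, adjusted p = 0.858) without SLEAR shRNA-3. GPR137 overlaps BAD on the opposite strand, which leaves the row uncertain without knowledge of strand.

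BMF, which is bound to the actin cytoskeleton through a dynein light chain, measured 7.69 RPM in Control, and SLEAR shRNA gave 3.83, 6.71 and 0 RPM. All 3 values were below Control. The log2 difference was -1.38 (95% interval -5.08 to 2.32, adjusted p = 0.993 by limma), and -0.51 (-1.94 to 0.92, adjusted p = 0.617) without SLEAR shRNA-3. Its size depended on the scale and the weights, at -2.49 with a pseudocount of 0.1, -0.66 with a pseudocount of 5, -2.21 with limma-voom and -0.50 with array weights. Of rows averaging 4 to 8 RPM over the other 2 SLEAR shRNA libraries, 26.7% were listed at 0 in SLEAR shRNA-3 and 0.127% in Control. The gene BMF-AS1 overlaps BMF on the opposite strand.

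PMAIP1 encodes NOXA, which binds MCL1. PMAIP1 measured 1.31 RPM in Control, and SLEAR shRNA gave 8.94, 1.46 and 0 RPM, so 1 library alone stood above the rest. From 11 estimated reads in Control and 63 in SLEAR shRNA-1, the ratio was 6.81 (95% counting interval 3.56 to 14.3). The log2 difference of the group was 0.33 (-3.52 to 4.18, adjusted p = 0.993 by limma), and its sign changed to -0.56 without SLEAR shRNA-1. HRK, known mainly from neurons, was listed at 0 in Control and at 0, 0.66 and 0 RPM with SLEAR shRNA. A count of 0 allows up to 0.358 RPM in Control, 0.426 RPM in SLEAR shRNA-1 and 0.623 RPM in SLEAR shRNA-3, by counting error only.

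**Figure D3:**
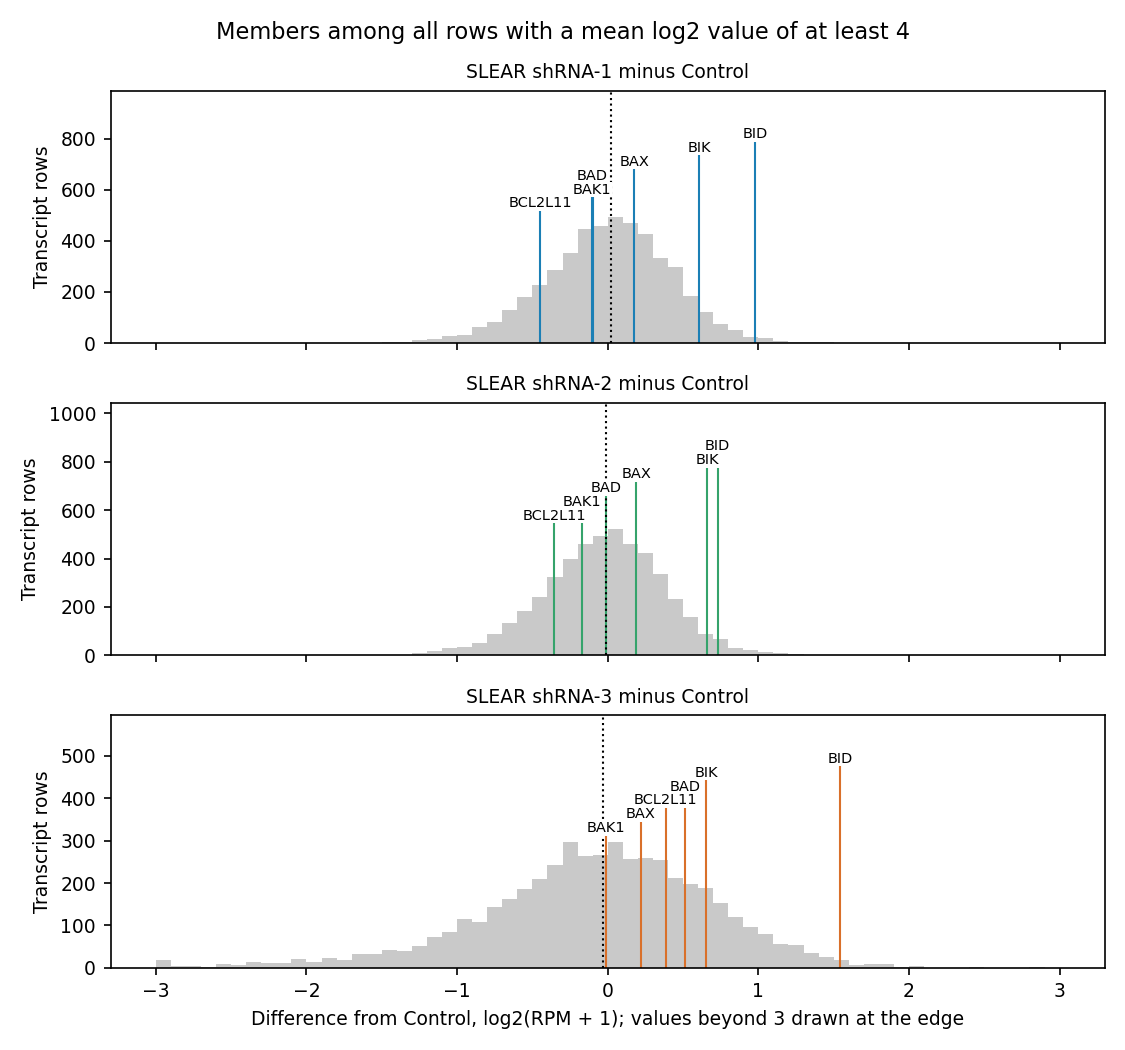
Histograms of the difference from Control on the log2(RPM + 1) scale for the 4851 better-expressed rows, with 1 panel per SLEAR shRNA library, the 6 member rows in this set as coloured lines and the median of all rows dotted. BID lies in the right tail in each panel, and BCL2L11 changes side in SLEAR shRNA-3, whose histogram is the widest.

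MAPS reads the end of a transcript next to the poly(A) tail, so RPM levels were set side by side here without division by length. In Control the order was BCL2L11 (119 RPM over its rows), BAX, BAK1, BAD, BID and BIK, with BMF, BBC3, PMAIP1 and HRK below 8 RPM. BID held the fifth place in Control and the third in each SLEAR shRNA library, above BAK1. Within each SLEAR shRNA library BID lay above BAK1 and below BAX, although by 97.63 against 97.66 RPM for BAX in SLEAR shRNA-3. The order of BCL2L11 and BAX differed between these libraries, as did that of BAD with BIK and with BAK1.

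The 8 BH3-only genes summed to 242 RPM in Control, and to 263, 261 and 393 RPM with SLEAR shRNA. SLEAR shRNA-1 and -2 were thus near Control in the sum and differed from it in composition. BCL2L11 made up 49.1% of these reads in Control (95% Wilson interval 46.9 to 51.3) and 33.3% (31.2 to 35.5), 35.8% (33.7 to 38.0) and 39.1% (36.9 to 41.3) in the 3 SLEAR shRNA libraries. In SLEAR shRNA-3 its share was lower although its level was higher than in Control (154 against 119 RPM), because the sum was larger. BID made up 13.6% in Control (12.1 to 15.1) and 24.9% (23.0 to 26.9), 21.1% (19.3 to 22.9) and 24.9% (23.0 to 26.9). The share of BIK was 12.6% in Control and 17.8%, 18.6% and 12.3% with SLEAR shRNA. Without BCL2L11 the other BH3-only genes summed to 123 RPM in Control and 175, 168 and 239 RPM. These shares are of 1 Control library and were not tested.

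**Figure D4:**
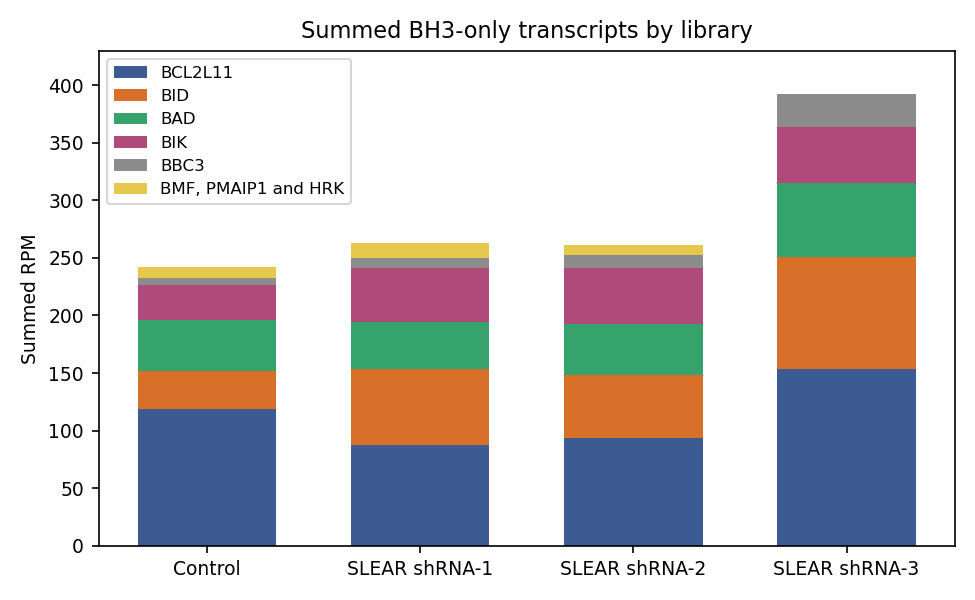
Summed RPM of the BH3-only genes in each library as stacked bars from 0, split by gene. The bars of SLEAR shRNA-1 and -2 (263 and 261 RPM) are close to Control (242 RPM) with less BCL2L11 and more BID, and the bar of SLEAR shRNA-3 (393 RPM) is taller.

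With SLEAR shRNA-3 left out and only the 4851 better-expressed rows fitted, a choice made after the data were seen, BID and BIK passed. BID rose by 0.85 on the log2 scale (95% interval 0.45 to 1.26, adjusted p = 0.00126 by limma) and BIK rose by 0.63 (0.20 to 1.06, adjusted p = 0.0320). In this fit 7.11% of rows were called higher and 7.26% lower, and 2 of the 6 member rows were called higher and 0 lower. It rests on 2 SLEAR shRNA libraries and 1 Control, and limma pooled the spread over all rows completely. That spread came only from the differences between SLEAR shRNA-1 and -2, which may be technical. Control was assumed to vary like them, which 1 library cannot show. BAX (adjusted p = 0.547), BAK1 (0.701), BAD (0.892) and BCL2L11 (0.112) did not pass in it. Over all 12350 rows without SLEAR shRNA-3, neither BID nor BIK passed (adjusted p = 0.368 for both).

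Genes that act with these members were read from 5 lists, and 0 of their rows passed with all libraries, in either direction. Rows above or below Control in all 3 SLEAR shRNA libraries are counted for each list, beside 17.8% above and 28.6% below over all tested rows. Among the 4851 better-expressed rows these shares were 25% and 25.6%, and the lists were not split by level. In each list the 3 genes with the smallest unadjusted p are given. Of 5 tested rows of pro-survival genes, 1 lay above Control in all 3 SLEAR shRNA libraries and 2 below, with a median log2 difference of -0.31. They included a minor row of BCL2, with 2.50 RPM in Control beside 0.43, 0.13 and 0 RPM, and BCL2A1, at 26.7 RPM against 20.1, 25.1 and 4.95 RPM. The BCL2 row was near the floor, as 1 estimated read is worth 0.133 RPM in SLEAR shRNA-2 and 0.208 RPM in SLEAR shRNA-3. It does not give the level of BCL2 as a whole. MCL1, a short-lived partner of BCL2L11 and PMAIP1, measured 175 RPM in Control against 107, 139 and 188 RPM. It lay below Control in both SLEAR shRNA-1 and -2, as did 41% of all tested rows. Of 9 tested rows of other BCL2 family and BH3-like genes, 3 lay above and 1 below, with a median of 0.12. BNIP2 was at 170.1 RPM against 131, 148 and 115 RPM, BCLAF1 at 5.01 RPM against 7.66, 7.71 and 21.2 RPM, and BNIP1 at 3.46 RPM against 4.54, 6.38 and 16.4 RPM.

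Of 11 tested rows of transcription factors known to act on BH3-only genes, 2 lay above (beside 17.8% of all rows) and 4 below (beside 28.6%), with a median of -0.16. JUN, a subunit of AP-1, measured 13.0 RPM in Control against 3.69, 5.85 and 2.91 RPM. SP1, which binds GC boxes, was at 45.1 RPM against 23.3, 35.6 and 28.7 RPM, and ATF4, of the integrated stress response, at 1135 RPM against 1455, 1350.2 and 1345 RPM. Of 24 tested rows of regulators of the members' stability, cutting or binding, 5 lay above and 3 below, with a median of 0.00. FBXW7, which marks MCL1 for degradation, was at 2.03 RPM against 0.28, 0.66 and 0 RPM. PRKACA, a kinase subunit that phosphorylates BAD, was at 7.87 RPM against 13.9, 13.2 and 18.3 RPM, and MAPK3, which phosphorylates BIM, at 34.7 RPM against 48.8, 45.2 and 72.7 RPM.

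Downstream, of 17 tested rows of mitochondrial membrane genes and released factors, 5 lay above (beside 17.8% of all rows) and 3 below (beside 28.6%), with a median of 0.07. Of these 17 rows, 10 were among the 4851 better-expressed rows, where the shares were 25% and 25.6%. MFN2, a mitochondrial fusion protein, measured 181 RPM in Control against 301, 254 and 206 RPM. FIS1 was at 12.6 RPM against 22.3, 16.5 and 22.6 RPM, and AIFM1, which leaves mitochondria in some forms of cell death, at 165 RPM against 154, 129 and 122 RPM. In the fit without SLEAR shRNA-3 on the 4851 better-expressed rows, MFN2 (adjusted p = 0.00149 by limma) and SLC25A6 (adjusted p = 0.0167) were called higher, of 10 mitochondrial rows, beside 7.11% of all rows in this fit. MCL1 was called lower (adjusted p = 0.0200), of 3 pro-survival rows, beside 7.26%, and no row of the other 3 lists was called. SLC25A6 was named after its values were seen.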

How the data were processed

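RNA of Jurkat cells was read by MAPS in 4 libraries, 1 Control and 3 SLEAR shRNA. The authors deposited RPM values for transcript rows, and FastQC, Bowtie2, SAMtools and hg19 appear in the submitters' processing notes. How reads were assigned to rows was not given in the sources used here.

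Rows averaging at least 1 RPM were merged where all values were identical (177 rows removed, 16151 left). Depth came from the spacing of low values. Of all nonzero values in a library, 95.8% to 96.6% were whole multiples of that spacing within 0.05 reads. As this is not exact, RPM were not treated as counts. SLEAR shRNA was compared with Control by limma-trend (limma 3.58.1, R 4.3.3) on log2(RPM + 1), a scale that understates the change of low rows, for the 12350 rows that reached 1 RPM in any library. P-values were two-sided and Benjamini-Hochberg adjusted over all rows, with a threshold of 0.05. The spread came from the 3 SLEAR shRNA libraries, and Control was assumed to vary like them. The code was tested on simulated data. Alternatives were other pseudocounts, filters, size factors, weights, limma-voom, summed rows and left-out libraries. TMM factors were computed directly from estimated reads. All rows of the 10 genes are named, and of 5 lists the 3 genes with the smallest unadjusted p. The members and lists were chosen with earlier results of these data known.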

Additional observations from a re-analysis of the deposited data

How the results depend on the processing

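Other pseudocounts, minimum levels, size factors, array weights, limma-voom, summed rows and single left-out libraries each called 0 member rows and 0 rows of the whole table. Leaving out 1 SLEAR shRNA library at a time gave 4 to 6 of 10 member rows above Control, beside 22.4% to 35.2% of all rows. It gave 2 to 4 below, beside 34.9% to 41%. With rows averaging at least 4 in log2(RPM + 1) the count below was 1, since fewer rows were tested. That minimum without SLEAR shRNA-3, chosen after the data were seen, called 345 rows higher and 352 lower, 2 of them member rows, with BAD at -0.056. BID, BIK, BBC3, BAX, BAK1 and BMF kept their sign wherever they were tested, BMF with values from -2.49 to -0.50, and BID lay between 0.84 and 1.26. With array weights, BAD was at -0.026 and the lower BCL2L11 row at 0.34. PMAIP1 was at -0.33 with a pseudocount of 0.1 and at -0.14 with limma-voom. Leaving out 1 library at a time, BAD ranged from -0.056 to 0.25, the main BCL2L11 row from -0.40 to 0.014, its lower row from -0.46 to 0.37 and PMAIP1 from -0.56 to 1.10. The cause of these turns in sign was not tested. No paired analysis was possible because Control is a single library. Depth limits BBC3, BMF, PMAIP1 and HRK, which had 65 estimated reads or fewer in Control.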
